A study of Rattus norvegicus with 20 samples.

Results

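A set of 10 genes of the rat subiculum, out of 32883 gene IDs in the counts table, is described here. They were chosen because their change from control to preconditioning was more positive in the ventral than in the dorsal subiculum. That difference of responses, the interaction, was fitted over 14087 genes with enough counts. The quasi-likelihood test of edgeR called 11 genes there at an adjusted p under 0.05, or 0.0781% of those tested. These 10 are the ones with a positive sign. All 10 passed the filter on low counts. The values that chose them were the same values described below for the separate responses, so those responses are given as a description and not as a test.

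Poly(A) RNA was sequenced from wild-type Wistar rats 3 months old, in 4 groups of 5 libraries. The groups were dorsal control, ventral control, dorsal preconditioning and ventral preconditioning. Both preconditioning groups were collected 24 hours after a protocol of acute seizures evoked by stimulating the perforant pathway. Both regions were cut from frozen sections by laser microdissection, and what the control animals underwent is not given in the sources used here. Nothing in the labels says whether libraries of a group, or same-numbered dorsal and ventral libraries, came from separate animals, so p-values measure the spread between these libraries.

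The subiculum receives the output of hippocampal area CA1 and sends it on to cortical and subcortical targets. Its dorsal part is linked mainly to spatial and memory circuits, and its ventral part to limbic and hypothalamic circuits involved in emotion and stress. The perforant pathway carries entorhinal input into the hippocampal formation, and repeated stimulation of it is a standard way to evoke limbic seizures. In preconditioning, a mild insult is given before a harmful one, and changes in gene expression over the following day are a common subject of such work.

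Total counts ranged from 3087146 to 20463678 per library. The counts table gives Ensembl IDs without names, and 0 of them could be matched to a symbol in the rat gene table used here. The 10 genes are therefore given by ID, with no function or position, and the regions could not be checked against marker genes. In tissue samples such as these, fewer cells of a type and less RNA per cell cannot be told apart. Reads from near-identical gene copies or overlapping genes may have been counted in ways not given in the sources used here, which holds for every gene below.

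In all 10 genes the 5 ventral preconditioned libraries lay above the 5 ventral controls, without overlap. Among the 14087 genes, 3.70% had ventral ranges that stood apart in this direction. The ventral increases ran from 1.81-fold for ENSRNOG00000046829 to 10.4-fold for ENSRNOG00000023633. The dorsal estimates were spread on both sides of no change, from 0.758-fold for ENSRNOG00000009540 to 2.65-fold for ENSRNOG00000023633. Only 2 of the 10 had dorsal ranges that stood apart with preconditioning higher, ENSRNOG00000023633 and ENSRNOG00000009550, where the share over all genes was 1.17%. By edgeR's adjusted p-value, 10 of the 10 were called higher in the ventral comparison, against 2.93% of the 13291 genes tested there. In the dorsal comparison 1 was called higher, against 0.213% of 13647 genes. The choice of the genes used both responses, so nothing is read from these counts.

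**Figure D1:**
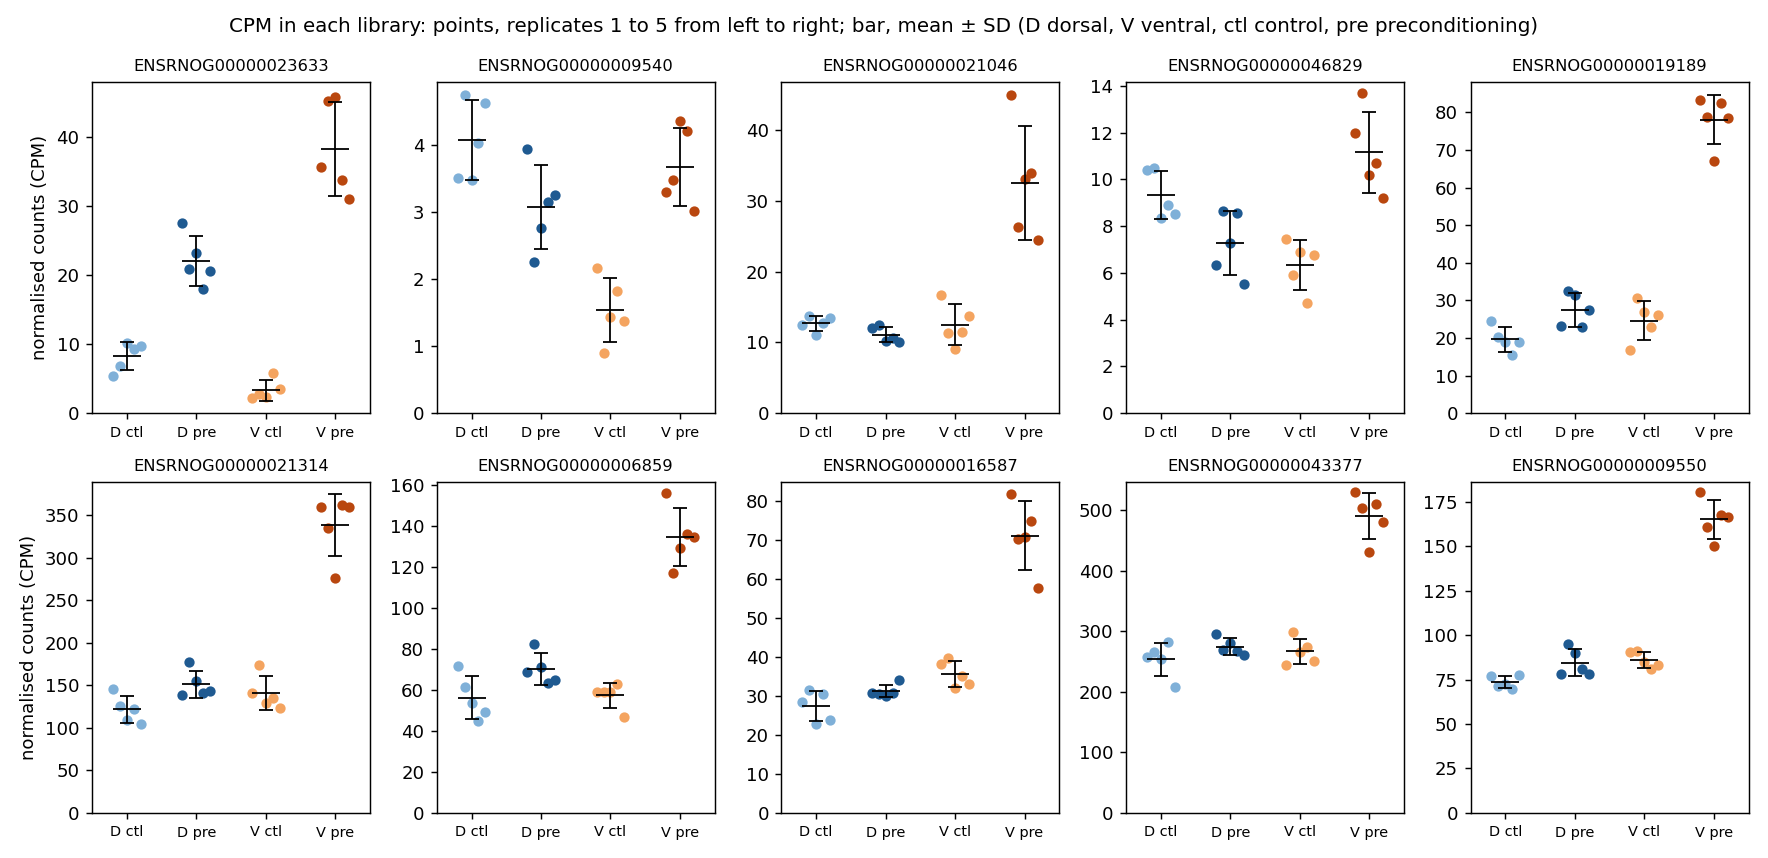
Normalised counts (CPM, vertical axis from 0) of the 10 genes in each of the 20 libraries, 5 per group, with the mean and SD of each group. The ventral preconditioned libraries stand above the ventral controls in every panel, while the dorsal groups overlap in 8 of the 10.

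In control libraries the 10 genes did not share a regional level. They are described as 3 patterns, sorted by the ventral and dorsal controls after these values had been seen. In 3 genes the ventral control was below the dorsal control in all 5 same-numbered pairs. In 5 genes the control ranges of the regions overlapped with a ventral to dorsal ratio of means between 0.984 and 1.26. In the remaining 2 the ventral controls lay above the dorsal controls without overlap.

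ENSRNOG00000023633 was the gene of the first pattern with the widest range. Its CPM values, counts scaled to a common library size, were 5.31, 6.86, 10.2, 9.23 and 9.65 in dorsal controls 1 to 5. They were 27.5, 20.9, 23.2, 17.9 and 20.6 in the dorsal preconditioned libraries. All dorsal preconditioned values lay above all dorsal controls. The ventral controls measured 2.17, 2.70, 2.40, 5.86 and 3.42 CPM, and the ventral preconditioned libraries 35.7, 45.2, 45.7, 33.7 and 31.0 CPM. The gene thus stood lower in ventral than in dorsal tissue in the control groups and higher in the preconditioning groups, with ventral to dorsal ratios of the means of 0.401 and 1.74. Ventral control 4 was the high one of its group and was the 1 ventral control that overlapped with the dorsal controls. The ventral controls rested on 7 to 122 counts per library.

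The response of ENSRNOG00000023633 was a log2 fold change of 1.41 (SE 0.19) in the dorsal and 3.38 (SE 0.23) in the ventral region, n = 5 libraries per group. The interaction was 1.98 (SE 0.31), the largest of the 10. Without ventral control 4 the ventral response was 3.77 and the interaction 2.37. It was the one gene of the 10 that was called in the dorsal region too (edgeR adjusted p = 0.00501).

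ENSRNOG00000009540 was the least counted of the 10, with 7 to 73 counts per library. Dorsal controls measured 3.51, 4.75, 3.49, 4.03 and 4.63 CPM, and dorsal preconditioned libraries 3.95, 2.26, 2.77, 3.16 and 3.26 CPM. In the ventral region the controls measured 2.17, 0.900, 1.44, 1.83 and 1.37 CPM and the preconditioned libraries 3.30, 3.49, 4.37, 4.21 and 3.02 CPM. In the preconditioning groups the ventral and dorsal ranges overlapped, with a ratio of the means of 1.19, against 0.377 in controls. This was the only gene of the 10 whose highest group mean was that of dorsal controls, at 4.08 ± 0.598 CPM (SD, n = 5), against 3.68 ± 0.588 CPM after ventral preconditioning. Those 2 groups overlapped.

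Its log2 fold change was -0.40 (SE 0.21) in the dorsal and 1.28 (SE 0.25) in the ventral region. The dorsal estimate was not called (edgeR adjusted p = 0.685). The depth bounds the precision of single libraries. In ventral control 1, 7 counts allow 0.872 to 4.47 CPM (exact 95% Poisson interval, counting error only). That interval reaches above the highest ventral preconditioned value, 4.37 CPM. Its interaction of 1.67 (SE 0.31) passed the threshold in 16 of 26 alternative analyses. Of these 26, 20 left out 1 library, and 11 of those 20 passed.

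ENSRNOG00000046829 completed the first pattern. Dorsal controls measured 10.4, 10.5, 8.36, 8.91 and 8.50 CPM, and dorsal preconditioned libraries 6.33, 8.64, 7.29, 8.56 and 5.52 CPM. Ventral controls measured 7.43, 5.90, 6.88, 4.71 and 6.75 CPM, and ventral preconditioned libraries 12, 13.7, 10.2, 10.7 and 9.22 CPM. The regions stood apart in both conditions, but in opposite order. After preconditioning 9 of the 10 genes, all but ENSRNOG00000009540, had ventral values entirely above the dorsal ones, as did 8.63% of all genes. All ventral controls lay below all dorsal controls, and all ventral preconditioned libraries lay above all dorsal preconditioned ones.

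The log2 fold change of ENSRNOG00000046829 was -0.37 (SE 0.17) in the dorsal region, not called (edgeR adjusted p = 0.601), and 0.86 (SE 0.17) in the ventral region. Its means ran from 6.33 ± 1.06 CPM in ventral controls over 7.27 ± 1.37 and 9.35 ± 1.06 CPM in the dorsal preconditioned and control groups to 11.2 ± 1.74 CPM after ventral preconditioning (SD, n = 5 each). Every group overlapped with its neighbour in that order. The interaction of 1.21 (SE 0.23) was among the 2 closest to the threshold and passed it in 13 of 27 alternative analyses. Of these 27, 20 left out 1 library, and 7 of those 20 passed.

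Over all 14087 genes, control ranges stood apart with the dorsal region higher in 10.2%, and with the ventral region higher in 8.57%. Among the 10 genes the counts were 2 and 2.

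The 5 genes of the second pattern had similar control levels in the regions. ENSRNOG00000021046 was the one of them whose dorsal estimate was below 0. Dorsal controls measured 12.4, 13.8, 11.1, 12.7 and 13.5 CPM, and dorsal preconditioned libraries 12.1, 12.4, 10.2, 10.6 and 10.1 CPM. Ventral controls measured 16.7, 11.3, 9.11, 11.5 and 13.8 CPM, and ventral preconditioned libraries 45.0, 26.3, 33.1, 33.9 and 24.5 CPM. The 3 groups other than ventral preconditioning overlapped one another in order of their means, and ventral preconditioning stood clear of them. It was also the gene with the widest relative spread in ventral preconditioned libraries (coefficient of variation 24.8%), with library 1 highest and library 5 lowest.

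The log2 fold change of ENSRNOG00000021046 was -0.20 (SE 0.13) in the dorsal and 1.40 (SE 0.19) in the ventral region. Its interaction was 1.59 (SE 0.23). The dorsal estimate was not called (edgeR adjusted p = 0.765).

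ENSRNOG00000019189 had the largest ventral response after ENSRNOG00000023633. Dorsal controls measured 24.5, 20.3, 18.9, 15.5 and 18.9 CPM, and dorsal preconditioned libraries 23.1, 32.6, 31.4, 22.8 and 27.5 CPM. Ventral controls measured 16.7, 30.5, 27.0, 23.0 and 26.0 CPM, and ventral preconditioned libraries 83.2, 78.9, 67.1, 82.6 and 78.6 CPM. The dorsal groups overlapped, through dorsal control 1 and the 2 lowest preconditioned libraries. All ventral preconditioned libraries lay above the highest value of every other group, with a mean of 78.1 ± 6.46 CPM against 24.6 ± 5.18 CPM in ventral controls (SD, n = 5 each).

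For ENSRNOG00000019189 the log2 fold change was 0.47 (SE 0.15) in the dorsal and 1.64 (SE 0.14) in the ventral region, a 1.39-fold and a 3.13-fold change, and the interaction was 1.17 (SE 0.20). The dorsal estimate was not called (edgeR adjusted p = 0.314).

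ENSRNOG00000021314 and ENSRNOG00000006859 had nearly the same pair of responses. For ENSRNOG00000021314 the dorsal means were 121.6 ± 16.1 CPM in controls and 150.9 ± 15.9 CPM after preconditioning (SD, n = 5 each). Its ventral controls measured 140.3, 174.1, 128.9, 134.9 and 123.2 CPM. Its ventral preconditioned libraries measured 359.8, 334.8, 275.5, 362.2 and 359.2 CPM, with library 3 the low one. The highest value in any other group was 177.1 CPM, in dorsal preconditioning 2. The log2 fold changes were 0.30 (SE 0.11) and 1.27 (SE 0.12).

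The dorsal means of ENSRNOG00000006859 were 56.2 ± 10.6 CPM in controls and 70.1 ± 7.62 CPM after preconditioning, and the ventral means 57.4 ± 6.11 and 134.5 ± 14.0 CPM (SD, n = 5 each). The ventral preconditioned libraries measured 155.8, 117.0, 129.3, 135.8 and 134.6 CPM. All lay above the highest dorsal value, 82.6 CPM in dorsal preconditioning 2. The log2 fold changes were 0.31 (SE 0.13) and 1.23 (SE 0.11), and the interactions of these 2 genes were 0.96 (SE 0.16) for ENSRNOG00000021314 and 0.91 (SE 0.17) for ENSRNOG00000006859. The latter passed the interaction threshold in 15 of 27 alternative analyses. Of these 27, 20 left out 1 library, and 8 of those 20 passed. Neither dorsal estimate was called, with edgeR adjusted p-values of 0.412 for ENSRNOG00000021314 and 0.542 for ENSRNOG00000006859.

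ENSRNOG00000043377 was the most counted of the 10 and had the smallest dorsal estimate in size. Dorsal controls measured 256.9, 265.6, 254.0, 282.7 and 207.9 CPM, and dorsal preconditioned libraries 295.3, 268.9, 281.3, 268.0 and 260.1 CPM. Ventral controls measured 244.4, 298.4, 265.3, 273.6 and 251.2 CPM, and ventral preconditioned libraries 530.2, 503.7, 430.4, 509.4 and 479.6 CPM. Dorsal controls, ventral controls and dorsal preconditioned libraries overlapped one another. The ventral preconditioned libraries stood apart, at 490.6 ± 38.2 CPM (SD, n = 5). The log2 fold change was 0.11 (SE 0.10) in the dorsal region, not called (edgeR adjusted p = 0.835), and 0.88 (SE 0.10) in the ventral region, and the interaction was 0.76 (SE 0.13).

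The last 2 genes were higher in ventral than in dorsal tissue in controls as well. For ENSRNOG00000009550 the dorsal controls measured 77.1, 71.6, 72.2, 69.9 and 77.7 CPM and the ventral controls 90.4, 91.3, 85.1, 80.8 and 83.0 CPM. After preconditioning the dorsal libraries measured 78.3, 94.8, 90.0, 81.1 and 78.0 CPM and the ventral libraries 180.5, 160.7, 150.3, 167.7 and 166.6 CPM. The dorsal preconditioned libraries lay just above the dorsal controls, the lowest at 78.0 and the highest control at 77.7 CPM, and overlapped with the ventral controls. Ventral preconditioning stood clear of the other groups. The dorsal log2 fold change of 0.19 (SE 0.09) was not called in spite of ranges that stood apart (edgeR adjusted p = 0.636), and the ventral one was 0.94 (SE 0.09). The interaction was 0.75 (SE 0.11), the smallest of the 10.

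ENSRNOG00000016587 showed the same order of groups. Its mean was 27.4 ± 3.86 CPM in dorsal controls, 31.2 ± 1.56 CPM after dorsal preconditioning, 35.6 ± 3.29 CPM in ventral controls and 71.1 ± 8.80 CPM after ventral preconditioning (SD, n = 5 each). Its ventral controls ranged from 32.0 to 39.7 CPM and its dorsal controls from 22.8 to 31.4 CPM. The ventral preconditioned libraries measured 81.9, 70.2, 70.7, 74.9 and 57.7 CPM, all above the other 3 groups. The log2 fold change was 0.19 (SE 0.12) in the dorsal region, not called (edgeR adjusted p = 0.749), and 1.0 (SE 0.11) in the ventral region. Its interaction of 0.80 (SE 0.15) passed the threshold in 10 of 27 alternative analyses, the fewest of the 10 genes. Of these 27, 20 left out 1 library, and 5 of those 20 passed.

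The median log2 fold change of the 10 genes was 1.25 in the ventral region, where the median over all 13291 genes tested was -0.011. In the dorsal region it was 0.19, against -0.007 over 13647 genes. The dorsal estimates were below 0 for 3 genes. None of the 10 was called lower, where edgeR called 8 of the 13647 genes lower. At an unadjusted p-value under 0.05 in edgeR, 5 of the 10 differed in the dorsal region, as did 8.11% of all genes tested there. The choice of the genes used these values too.

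**Figure D2:**
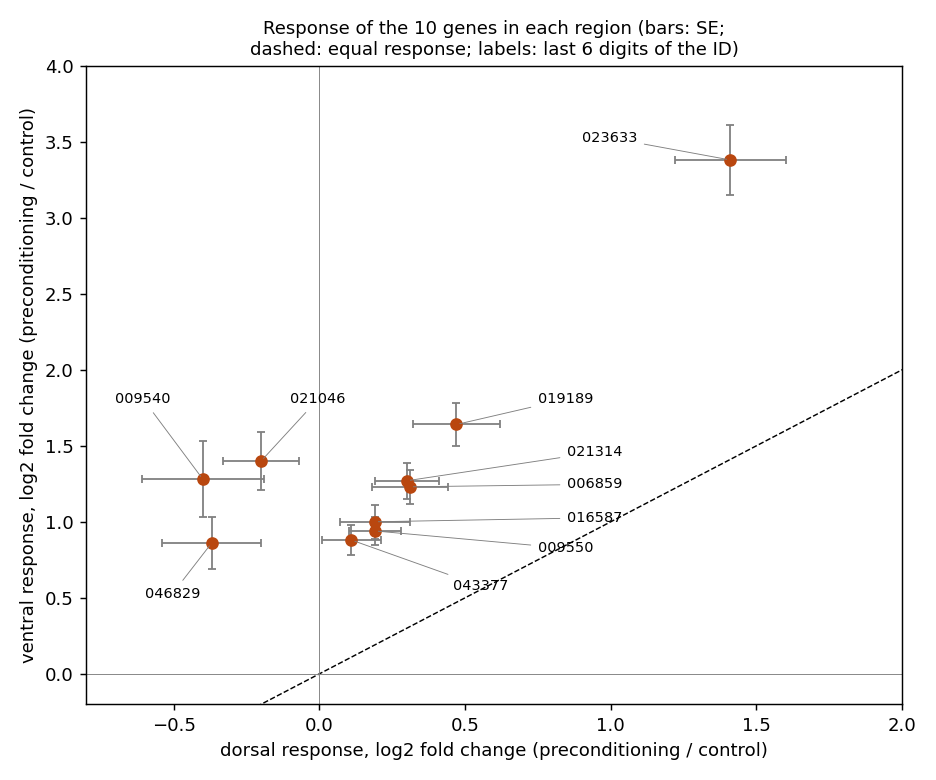
Log2 fold change from control to preconditioning in the dorsal region (horizontal) and the ventral region (vertical) for each of the 10 genes, with standard errors; the dashed line marks equal responses. All points lie above that line, as the choice of the genes requires, and 3 lie left of no dorsal change.

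Just inside the interaction threshold were ENSRNOG00000046829 and ENSRNOG00000016587, each with an edgeR adjusted p of 0.0366. The 3 genes just outside it on the positive side had edgeR adjusted p-values of 0.0626, 0.0708 and 0.0782 and interactions of 1.59, 1.65 and 1.94. Their size was thus within the range of the 10 genes, 0.75 to 1.98.

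The regional contrast can be seen within same-numbered dorsal and ventral libraries. The ventral minus dorsal difference in log2 CPM is given for numbers 1 to 5. For ENSRNOG00000023633 it was -1.23, -1.29, -2.02, -0.64 and -1.45 in controls and 0.37, 1.11, 0.98, 0.91 and 0.59 after preconditioning. All 5 control pairs were negative and all 5 preconditioned pairs positive. For ENSRNOG00000046829 it was -0.48, -0.82, -0.28, -0.90 and -0.33 in controls and 0.91, 0.65, 0.48, 0.32 and 0.72 after preconditioning, with the same signs. A number does not link a control pair to a preconditioned pair. ENSRNOG00000009540 went from between -2.20 and -0.65 in controls to between -0.25 and 0.63, and 3 of its 5 preconditioned pairs were higher in the ventral library.

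ENSRNOG00000009550 and ENSRNOG00000016587 were higher in the ventral library in all 5 control pairs, by 0.09 to 0.35 and by 0.20 to 0.48. After preconditioning these differences were 0.74 to 1.20 and 0.76 to 1.40. The difference for ENSRNOG00000019189 in controls was -0.55 in pair 1 and between 0.45 and 0.58 in the other 4. Pair 1 holds ventral control 1, the smallest library. For ENSRNOG00000006859 the highest control pair, at 0.49, nearly met the lowest preconditioned pair, at 0.50. In all 10 genes the preconditioned pairs lay above the control pairs, as they did in 1.30% of the 14087 genes. This is the contrast that chose the 10, and nothing is read from that count.

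**Figure D3:**
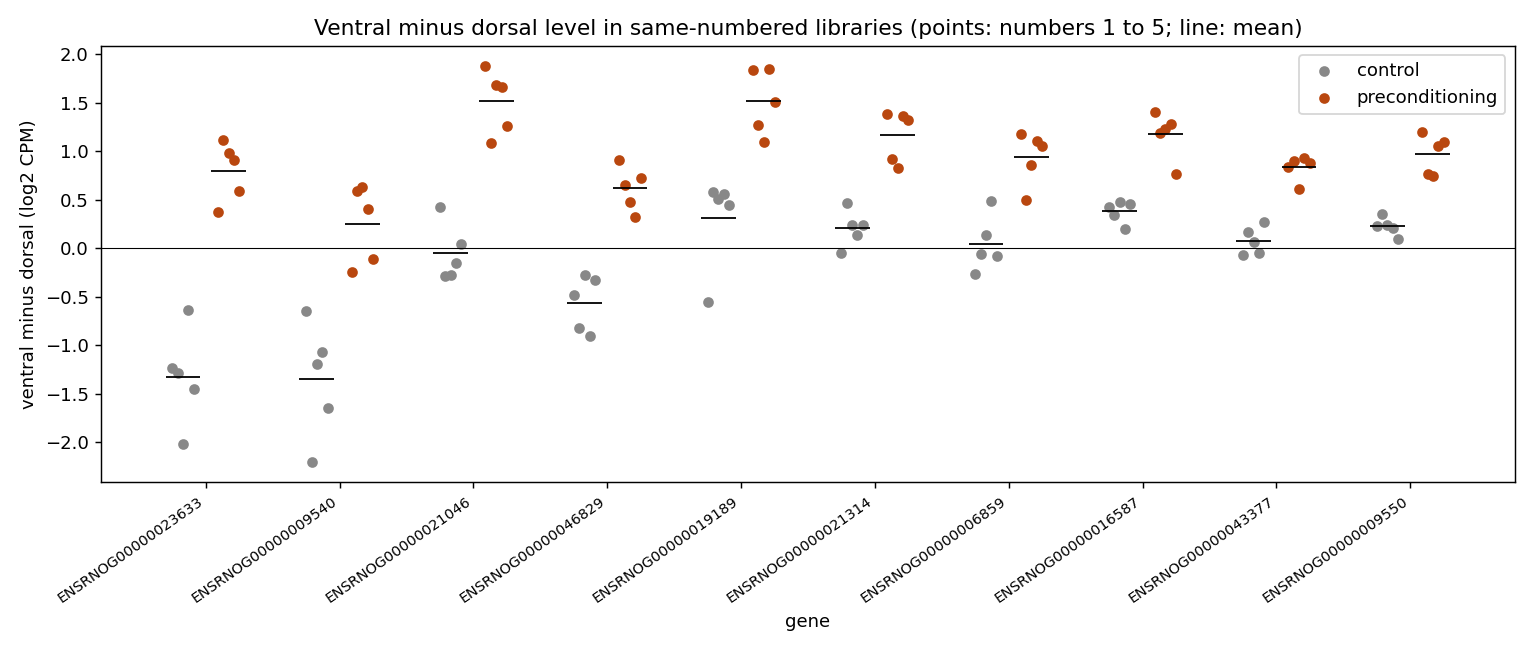
Ventral minus dorsal log2 CPM in the 5 same-numbered pairs of controls (grey) and of preconditioned libraries (orange) for each of the 10 genes, with the mean as a line. Control pairs lie below 0 for ENSRNOG00000023633, ENSRNOG00000009540 and ENSRNOG00000046829 and near or above 0 for most pairs of the others.

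A pair of measures other than the interaction was fitted over all 14087 genes and 20 libraries. They are the treatment effect averaged over the regions and the region effect averaged over the treatments. The weights of both contrasts are orthogonal to those of the interaction in this balanced layout. Depth and spread differ between groups, so the estimates need not be independent of it. They also rest on the same libraries and the same estimates of spread that chose the genes. A gene with a low spread passes more easily in any contrast, and one that is high after ventral preconditioning and falls less in dorsal tissue has a positive average. The values are therefore a description of the 10 genes, and nothing is read from how many were called.

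The average treatment effect was called higher for 8 of the 10 genes and lower for 0. Over all 14087 genes, edgeR called 531 higher (3.77%) and 374 lower. The median effect over the 10 was 0.60 on the log2 scale, and over all genes -0.004. The largest was 2.40 (SE 0.16) for ENSRNOG00000023633, with an edgeR adjusted p of 9.83e-10. The next was 1.06 (SE 0.10) for ENSRNOG00000019189 (edgeR adjusted p = 2.74e-07). The 6 others that were called lay between 0.50 for ENSRNOG00000043377 and 0.79 for ENSRNOG00000021314. The 2 that did not pass were ENSRNOG00000009540, at 0.44 (SE 0.15, edgeR adjusted p = 0.0960), and ENSRNOG00000046829, at 0.25 (SE 0.12, edgeR adjusted p = 0.241). In both the dorsal estimate was below 0. That also held for ENSRNOG00000021046, which passed at 0.60 (SE 0.11, edgeR adjusted p = 0.00163). ENSRNOG00000009540 passed with limma-voom and sample quality weights (adjusted p = 0.0374), where its average was 0.43. Over all alternatives its adjusted p lay between 0.0374 and 0.244.

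The average region effect was called for 8 of the 10 genes, 7 with the ventral and 1 with the dorsal region higher. Over all genes, edgeR called 41.5% in either direction and 20.1% with the ventral region higher. The 7 ranged from 0.46 (SE 0.06) for ENSRNOG00000043377 to 0.92 (SE 0.10) for ENSRNOG00000019189 on the log2 scale, ventral over dorsal. These were the genes of the second pattern and of the third. In the second pattern the average rests largely on the preconditioned groups. Its mean ventral minus dorsal differences in log2 CPM were -0.05 to 0.31 in controls and 0.83 to 1.51 after preconditioning. ENSRNOG00000009540 was lower in the ventral region by the same average, at -0.60 (SE 0.15, edgeR adjusted p = 0.00318). The averages of ENSRNOG00000046829, at 0.01 (SE 0.12, edgeR adjusted p = 0.945), and of ENSRNOG00000023633, at -0.19 (SE 0.15, edgeR adjusted p = 0.341), did not pass. In these 2 the regional order turned between the conditions, and their averages combine differences of opposite sign. Without ventral control 4, ENSRNOG00000023633 passed at -0.38 (edgeR adjusted p = 0.0364), and over all alternatives its adjusted p lay between 0.0364 and 1.0.

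The 10 genes did not vary as one among libraries of a group. After the group means were removed, the 45 pairs of genes had Pearson correlations between -0.73 and 0.64 over the 20 libraries, with a median of 0.13. These correlations share library, depth and scaling, and are given as a description. No background of other gene pairs is given, so they do not show whether the 10 varied together more or less than other genes. In 6 pairs the correlation exceeded 0.5, and 4 of them included ENSRNOG00000021314, with ENSRNOG00000009550 (0.64), ENSRNOG00000006859 (0.61), ENSRNOG00000043377 (0.57) and ENSRNOG00000019189 (0.55). The others were ENSRNOG00000021046 with ENSRNOG00000016587 (0.53) and ENSRNOG00000006859 with ENSRNOG00000009550 (0.52).

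Of the 3 genes that were lower in ventral than in dorsal controls, ENSRNOG00000023633 and ENSRNOG00000009540 had median correlations of -0.21 and -0.18 with the other 9 genes, and ENSRNOG00000046829 one of 0.16. The lowest value of all was between ENSRNOG00000009540 and ENSRNOG00000019189 (-0.73). Within the ventral preconditioned group, library 1 held the highest value for 6 of the 10 genes. Library 5 held the lowest for 5 and library 3 for 4.

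**Figure D4:**
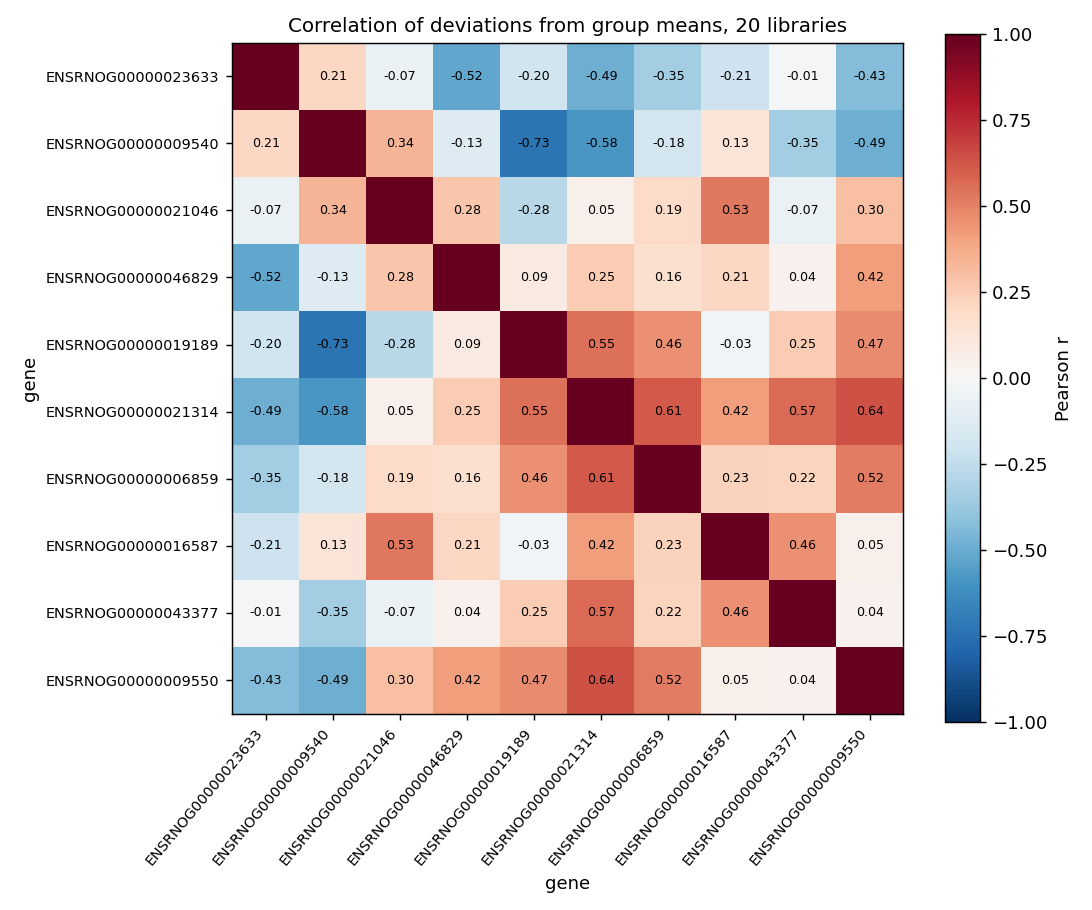
Pearson correlation between each pair of the 10 genes over the 20 libraries, after removal of the 4 group means. Values run from -0.73 to 0.64, with ENSRNOG00000021314 in 4 of the 6 pairs above 0.5.

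The spread and the abundance of the 10 genes were set beside those of all 14087. Their mean CPM over the 20 libraries ran from 3.09 to 321.0, with a median of 39.4, where the median of all genes was 22.4. Their biological coefficient of variation, edgeR's estimate of the spread between libraries beyond counting error, had a median of 14.3%, from 9.53% to 21.8%. The median of all genes was 17.4%. A low spread helps a gene to pass the threshold, so this is no independent property.

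Genes outside the 10 with the most similar course were ranked by the Pearson correlation of their log2 CPM with the mean standardised log2 CPM of the 10, over the 20 libraries. The highest was ENSRNOG00000013975 (r = 0.941). Its dorsal means were 5.24 ± 0.822 and 7.94 ± 0.362 CPM without and with preconditioning, and its ventral means 6.30 ± 0.887 and 17.7 ± 1.48 CPM (SD, n = 5 each). Next was ENSRNOG00000016122 (r = 0.921), whose means in the same order were 105.3 ± 12.3, 126.7 ± 16.5, 110.1 ± 15.0 and 193.9 ± 9.36 CPM. Both had positive interactions that did not pass, 0.89 (SE 0.19, edgeR adjusted p = 0.0822) and 0.55 (SE 0.15, edgeR adjusted p = 0.250).

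The 1 gene called with the opposite sign, ENSRNOG00000016388, is given as a contrast. Its dorsal means were 53.1 ± 12.7 and 80.7 ± 5.60 CPM without and with preconditioning, and its ventral means 123.7 ± 13.7 and 91.3 ± 10.7 CPM (SD, n = 5 each). Its correlation with the mean course of the 10 was 0.036. In it the ventral mean stayed above the dorsal mean, and the difference was smaller after preconditioning.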

How the data were processed

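The authors deposited raw counts per Ensembl rat gene ID for 20 libraries, whole numbers with no normalization. Per the submitters' processing notes, STAR, DESeq2 and the build Rnor_5.0 were used. The counting tool, the annotation and the strand setting are not given in the sources used here. Columns of treated libraries start with e and their titles with p. They were joined on region letter and number, which assumes that both letters mean preconditioning.

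The members and lists were chosen with earlier results of these data known. Counts were analysed with edgeR 4.0.16 in R 4.3.3: filterByExpr, TMM scaling and a quasi-likelihood F-test (robust), with Benjamini-Hochberg adjusted p-values under 0.05 called over all genes. The average effects and the interaction were fitted on all 20 libraries, and the response of each region on its own 10. The method was tested on simulated counts. These were drawn independently for each library, without the correlation of same-numbered libraries, and nothing is read from that test here. The standard error is the log2 fold change divided by the square root of F. CPM used TMM-adjusted library sizes, and log2 CPM a prior count of 2. Alternatives were DESeq2 1.42.0, its size factors in edgeR, a filter at a mean count of 50, no filter beyond 1 count, limma-voom 3.58.1 with quality weights, replicate blocks and each library left out in turn.

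Named genes were the 10 members, the called gene of opposite sign and the genes of most similar course. The rule asked for 5 of the latter; as IDs have no names here, 2 are printed, and the 3 just outside the threshold are given by value. Lists of pathway and cell type genes and promoter motifs were planned and not run for the same reason. Sequences of the 10 genes are not used here. A total of 3 counts corresponded to between 0.144 and 0.929 CPM, counting error only. Figures were drawn with matplotlib 3.10.9.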

Additional observations from a re-analysis of the deposited data

Results flagged for a closer look

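In 3 of the 40 sets of 5 values examined (10 genes in 4 groups), 1 library stood apart by Dixon's ratio, where chance gives about 1 in 20. ENSRNOG00000019189 measured 67.1 CPM in ventral preconditioning 3, with the others of its group between 78.6 and 83.2 CPM. ENSRNOG00000006859 measured 46.8 CPM in ventral control 5, with the others between 59.0 and 62.7 CPM. ENSRNOG00000016587 measured 34.0 CPM in dorsal preconditioning 5, with the others between 30.0 and 30.8 CPM. Neither of the ventral values lay in the range of the other ventral group.

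Each of the 10 genes was also flagged for a response that differed between the regions. The choice of the genes fixed this outcome, and nothing is read from it. The log2 difference, ventral minus dorsal, was 1.98 for ENSRNOG00000023633, 1.67 for ENSRNOG00000009540, 1.59 for ENSRNOG00000021046, 1.21 for ENSRNOG00000046829 and 1.17 for ENSRNOG00000019189. It was 0.96 for ENSRNOG00000021314, 0.91 for ENSRNOG00000006859, 0.80 for ENSRNOG00000016587, 0.76 for ENSRNOG00000043377 and 0.75 for ENSRNOG00000009550.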

How the results depend on the processing

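Over the whole table, DESeq2 called 55 genes for the interaction, 169 for the dorsal and 1085 for the ventral response, where edgeR called 11, 37 and 672. Limma-voom with quality weights called 100, 172 and 1508, and 1935 for the average treatment effect, where edgeR called 905. The counts under the other scaling and filter settings were within 1.5 times of edgeR's.

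With 1 library left out, 6 to 20 genes were called for the interaction, 15 to 50 for the dorsal response, 432 to 1029 for the ventral response, 691 to 1081 for the average treatment effect and 5473 to 6081 for the average region effect. The interaction count fell to 6 without dorsal control 2, ventral control 3, dorsal preconditioning 5, ventral preconditioning 1 or ventral preconditioning 3. It fell to 7 without ventral control 5, dorsal preconditioning 3 or ventral preconditioning 4, and rose to 17 without dorsal control 3 and 20 without ventral preconditioning 5. The dorsal count was 21 without dorsal preconditioning 1 and 15 without dorsal preconditioning 3. The ventral count was 432 without ventral control 5, 446 without ventral preconditioning 4 and 1029 without ventral control 2. The cause was not tested.

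Same-numbered dorsal and ventral controls deviated from their group means together, with correlations across genes of 0.200 to 0.393. In preconditioned libraries they ran from 0.0376 to 0.368, so the numbers were not taken to pair the samples throughout. Of 10 control libraries, 10 were closest to their own number in the other region, and of 10 preconditioned libraries 7. The p-values of the main fit treat the 20 libraries as independent. As a replicate block, the dorsal-ventral pair gave 62 calls for the interaction, and as a random effect 546 for the average treatment effect. The number alone as a replicate block gave 29 for the interaction and 1261 for the ventral response. The calls of the 10 genes did not change under the blocks that were run. The number was used for both average effects, the interaction and the response of each region. The pair was used for the average region effect and the interaction, and the random pair for the average treatment effect. For the average treatment effect, exact two-sided permutation of the 5 against 5 means of same-numbered pairs was run on the 10 genes only. Its unadjusted p was 0.00794, the smallest possible, for 9 genes, among them ENSRNOG00000009540, and 0.111 for ENSRNOG00000046829. The adjusted p of ENSRNOG00000009540 was 0.0960 in edgeR and 0.244 in limma-voom with the random pair, so neither called it. The permutation takes the numbers as pairs and uses the same libraries that chose the genes. No share over other genes is given, so nothing is read from how many reached the smallest p.

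For the 10 genes, 1117 of the alternative values kept their direction and side of the threshold or moved by less than the spread between replicates. The interaction of 6 genes passed in all 27 alternatives. ENSRNOG00000009540, ENSRNOG00000046829, ENSRNOG00000006859 and ENSRNOG00000016587 missed the threshold in part. ENSRNOG00000006859 missed it only in fits with 1 library left out. The average region effect of ENSRNOG00000046829, near 0, changed sign to -0.000677 with a mean count of at least 50, to -0.0460 with limma-voom, and ran from -0.0316 to 0.0668 with 1 library left out. With limma-voom the interaction of ENSRNOG00000023633 was 1.60 and that of ENSRNOG00000019189 was 1.42. Depth limited ENSRNOG00000009540 most, at 7 to 16 counts in 4 of the 5 ventral controls.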
